A study of Rattus norvegicus with 12 samples.

Results

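HTR2C, PRLR, EDNRB and ADRA2C encode receptors for serotonin, prolactin, endothelins and noradrenaline, and their transcripts were followed in the rat choroid plexus in the light and the dark phase. They are the 4 of 7 neurotransmitter and hormone receptors chosen by name (ADRA2C, HTR2C, PRLR, LEPR, INSR, IGF1R and EDNRB) that could be paired with an Ensembl identifier, out of 32883 genes in all. LEPR, INSR and IGF1R had no identifier in the symbol tables used here and were dropped, so their levels were not analysed here. RNA was taken from whole choroid plexus, of the lateral and the fourth ventricle, of 12 male Sprague-Dawley rats aged 9 weeks and kept on an equal light and dark cycle. Rats of both groups were anaesthetised with xylazine and ketamine. The light-phase group held 6 rats at zeitgeber time 8 (ZT8) and the dark-phase group 6 rats at ZT20, with 1 library per rat. With 1 time point per phase, a difference between the groups does not tell a daily rhythm from any other difference between those times.

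The choroid plexus is a sheet of epithelial cells around a core of vessels and stroma, and it secretes most of the cerebrospinal fluid. Receptors on this epithelium let blood-borne hormones and transmitters reach a tissue at the border between blood and fluid. HTR2C, the serotonin receptor 2C, couples to Gq proteins and phospholipase C and is known for its high expression in this epithelium. PRLR, the prolactin receptor, is a cytokine receptor that signals through the kinase JAK2 and the transcription factor STAT5. EDNRB, the endothelin receptor type B, couples to G proteins and also takes up endothelins, peptides that act on vessels. ADRA2C, the alpha-2C adrenoceptor, couples to Gi proteins, which lower the formation of cyclic AMP.

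Expression is given in TPM, a level per transcript length, scaled to the same total in each library, as the authors deposited it. Reads behind single values are not known, since TPM keeps no depth. From the steps in FPKM (fragments per kilobase of transcript, scaled to the library) of 187 weakly expressed genes, the relative depth of the libraries was estimated at 0.895 to 1.35 times their mean in the light phase and at 0.890 to 1.08 times in the dark phase. All 10 epithelial markers chosen for the tissue were expressed, and TTR, the thyroxine carrier transthyretin, took up 25.4 to 30.4% of all TPM in the light phase and 28.7 to 31.0% in the dark phase. The lowest TTR share was that of light-phase replicate 2, which also held the highest levels of RGS5, TAGLN and PLVAP, genes of the vessel wall, and of haemoglobin. HBB, a haemoglobin chain, stood at 5535 TPM in this library, and the median of the light phase was 1759 TPM. In whole tissue, fewer cells of a type and less RNA per cell cannot be told apart.

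To show the DNA in front of these receptor genes, the 250 bases before each annotated start are printed 5′ to 3′ on the gene's strand, from the RefSeq table of build GRCr8, which differs from the build of the expression files. All 4 symbols matched, and the table gave PRLR a pair of starts, an upstream and a downstream one. Capitals mark general E-boxes (CANNTG, a class of sites read by many helix-loop-helix factors) and STAT-type sites (TTCNNNGAA), both searched on both strands.
PRLR, upstream start, chr2:60861515-60861764, plus strand: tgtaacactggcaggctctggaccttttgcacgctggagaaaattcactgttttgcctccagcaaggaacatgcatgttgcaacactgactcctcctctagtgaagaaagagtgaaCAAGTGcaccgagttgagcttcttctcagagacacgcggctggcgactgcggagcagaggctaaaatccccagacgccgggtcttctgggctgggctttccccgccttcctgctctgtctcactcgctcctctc
PRLR, downstream start, chr2:60909409-60909658, plus strand: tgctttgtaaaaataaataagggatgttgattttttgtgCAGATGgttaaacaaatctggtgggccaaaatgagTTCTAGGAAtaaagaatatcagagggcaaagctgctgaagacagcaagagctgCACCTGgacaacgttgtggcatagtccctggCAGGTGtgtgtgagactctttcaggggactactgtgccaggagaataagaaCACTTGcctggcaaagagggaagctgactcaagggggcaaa
HTR2C, chrX:115452940-115453189, plus strand: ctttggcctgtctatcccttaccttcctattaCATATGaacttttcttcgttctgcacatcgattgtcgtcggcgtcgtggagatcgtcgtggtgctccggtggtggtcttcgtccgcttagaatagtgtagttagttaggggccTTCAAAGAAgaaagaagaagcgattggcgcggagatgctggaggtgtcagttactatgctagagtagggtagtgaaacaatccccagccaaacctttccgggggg
EDNRB, chr15:87086766-87087015, minus strand: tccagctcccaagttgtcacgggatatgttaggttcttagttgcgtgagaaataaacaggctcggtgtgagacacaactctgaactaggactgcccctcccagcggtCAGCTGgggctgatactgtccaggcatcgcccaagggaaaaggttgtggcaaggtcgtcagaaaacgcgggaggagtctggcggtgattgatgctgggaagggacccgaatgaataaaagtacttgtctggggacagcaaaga
ADRA2C, chr14:79697477-79697726, minus strand: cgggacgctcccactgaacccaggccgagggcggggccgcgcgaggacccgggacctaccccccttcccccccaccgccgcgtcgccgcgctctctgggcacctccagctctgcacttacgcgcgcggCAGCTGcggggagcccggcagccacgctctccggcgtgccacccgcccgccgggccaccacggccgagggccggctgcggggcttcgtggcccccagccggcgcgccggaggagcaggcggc

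These stretches differed in base composition, from 45.6% G and C at the downstream PRLR start to 80.4% at ADRA2C. Each of the 5 stretches held a general E-box, as did 65.5% of all 33469 promoters in the table over the same 250 bases. The downstream PRLR start held 4 of them and the other stretches 1 each. A STAT-type site lay before the downstream PRLR start, 176 bases upstream at its first base (TTCTAGGAA), and before HTR2C, 105 bases upstream (TTCAAAGAA), where 7.67% of all promoters held such a site. Motifs tied to the clock were also searched on both strands: the E-box read by CLOCK and BMAL1 (CACGTG, itself a general E-box, in 5.59% of all promoters), the D-box (TTATGTAA, 0.828%) and the half-site of ROR and REV-ERB receptors (AGGTCA, 14.1%). None of these letters occurred in the 5 stretches. Binding was not measured, so matches and their absence describe the letters only.

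Differential expression between the phases was tested with limma on log2(scaled TPM + 0.5) over the 12513 genes whose mean reached 1 TPM, with the Benjamini-Hochberg false discovery rate (FDR) over all of them. A positive log2 fold change stands for a higher level at ZT20. All 4 receptors passed the filter on low values, ADRA2C through its light-phase level. Limma called 17.7% of all genes tested at an FDR below 0.05, with 9.64% higher and 8.08% lower in the dark phase. In 8.26% of the genes the ranges of the phases did not touch. HTR2C, PRLR and EDNRB owe their identifiers to a table ordered by level, in which 23.0% of 1997 genes were called (9.16% higher and 13.9% lower) and 13.4% had separate ranges. Limma called 1 of these 3 receptors, PRLR, which also was the 1 with separate ranges, and with 3 receptors this count cannot be set apart from the background. PRLR, unlike HTR2C and EDNRB, is also in the study's lists of genes that differed between the phases in these libraries. Its tests here are therefore not independent of that earlier result. ADRA2C has an identifier here only because the study's list of membrane genes that differed between the phases in these libraries contains it. Its phase difference is therefore a condition of its inclusion, and is described without a test.

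PRLR (ENSRNOG00000057557) rose in the dark phase. In the light phase its lowest value was 91.4 TPM, its median 103.7 TPM and its highest value 124 TPM. In the dark phase it ran from 159 TPM through a median of 164 TPM to 179 TPM. Every dark-phase library thus exceeded every light-phase library, with the nearest pair of libraries 1.28-fold apart and the farthest 1.96-fold. The mean was 104.3 ± 12.6 TPM at ZT8 and 167 ± 7.72 TPM at ZT20 (SD, n = 6 each), a rise of 60.0%. On the log2 scale the rise was 0.67 (SE 0.062, limma FDR = 1.54e-05), and its 95% confidence interval spans a rise of 44.9 to 74.3%. A two-sided exact permutation test of the mean TPM gave p = 0.00216, the smallest value that 6 against 6 libraries allow, and 0.00649 after adjustment over 3 receptors. PRLR was called under each of the alternatives tried, with log2 fold changes of 0.62 to 0.71. The light-phase libraries varied more, with a coefficient of variation of 12.0% against 4.62% in the dark phase. PRLR messages are known to encode long and short receptor forms, and the gene-level TPM sums them.

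HTR2C (ENSRNOG00000030877) was the most abundant of the 4 receptors and did not pass the test. Its light-phase values ran from 547 through a median of 582 to 596 TPM, and its dark-phase values from 563 through 597 to 612 TPM. The phases overlapped over most of this range. The means were 576 ± 21.1 TPM at ZT8 and 592 ± 19.1 TPM at ZT20 (SD, n = 6 each), and the log2 difference was 0.026 (SE 0.039, limma FDR = 0.697). The 95% confidence interval of this difference runs from -3.96% to 7.96% at ZT20 against ZT8. By the exact permutation test p was 0.184 (0.276 adjusted over 3 receptors). With a coefficient of variation of 3.66% at ZT8 and 3.23% at ZT20, HTR2C had the least spread among the 4 receptors.

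EDNRB (ENSRNOG00000010997) likewise did not pass the test. The light-phase libraries held between 101 and 127 TPM, with a median of 117 TPM, and the dark-phase libraries between 103 and 131 TPM, with a median of 108 TPM. The highest value belonged to the dark phase and the lowest to the light phase, and the ranges overlapped almost fully. Means of 115 ± 8.84 TPM and 113 ± 11.5 TPM (SD, n = 6 each) gave a log2 difference of -0.035 (SE 0.071, limma FDR = 0.785). The 95% confidence interval runs from -12.3% to 8.62% at ZT20 against ZT8, and the exact permutation test gave p = 0.816 (0.816 adjusted over 3 receptors).

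**Figure D1:**
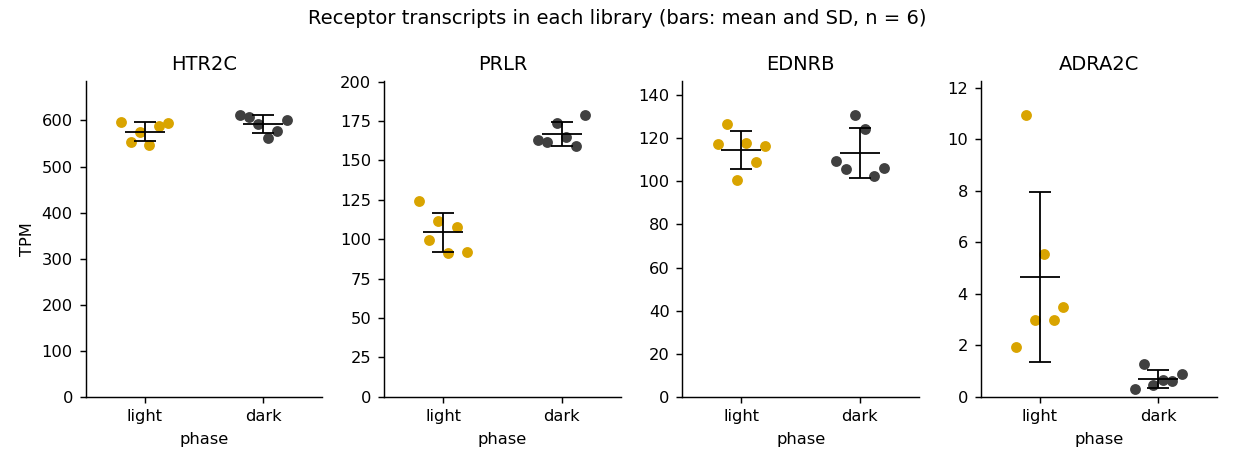
Levels of the 4 receptors in TPM on a linear axis from 0, one point per library, for the light and the dark phase, with the mean and SD of 6 libraries as bars. PRLR and ADRA2C separate the phases in opposite directions, while the points of HTR2C and EDNRB overlap.

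**Figure D2:**
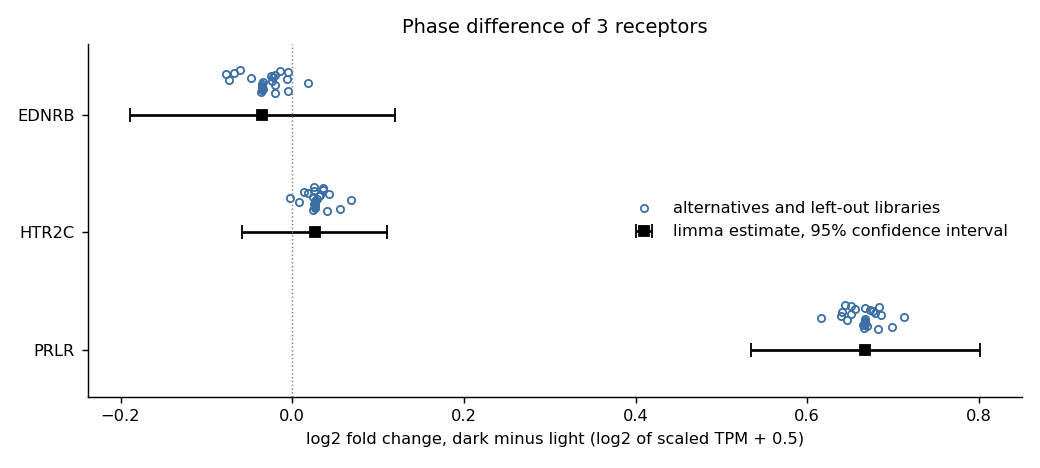
Log2 fold change of the dark against the light phase for PRLR, HTR2C and EDNRB, with the limma estimate and its 95% confidence interval as squares and the values under other settings and with each library left out as open circles. PRLR stays between 0.62 and 0.71, and the intervals of HTR2C and EDNRB include 0.

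The receptors were also compared with each other inside each library, where no scaling between libraries enters. The ratios to HTR2C were chosen after the data were seen. PRLR had already separated the phases in these libraries, and HTR2C and EDNRB had not been called. The ratios of PRLR therefore largely restate its own difference and are no independent test of it. PRLR stood at 18.0% of HTR2C at ZT8 and at 28.2% at ZT20 (geometric means). The log2 ratio ran from -2.69 to -2.26 at ZT8 and from -1.91 to -1.75 at ZT20, with no overlap. Its mean rose by 0.64 (two-sided exact permutation test, p = 0.00216, 0.00325 adjusted over 3 ratios). Against EDNRB, PRLR stood at 90.8% at ZT8 and at 148% at ZT20, with log2 ratios of -0.37 to 0.14 and of 0.41 to 0.75. This difference was 0.71 (exact permutation p = 0.00216, 0.00325 adjusted), again without overlap. The ratio of EDNRB to HTR2C, 19.9% and 19.0%, differed by less than the spread between libraries (log2 difference -0.061, exact permutation p = 0.491, 0.491 adjusted).

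**Figure D3:**
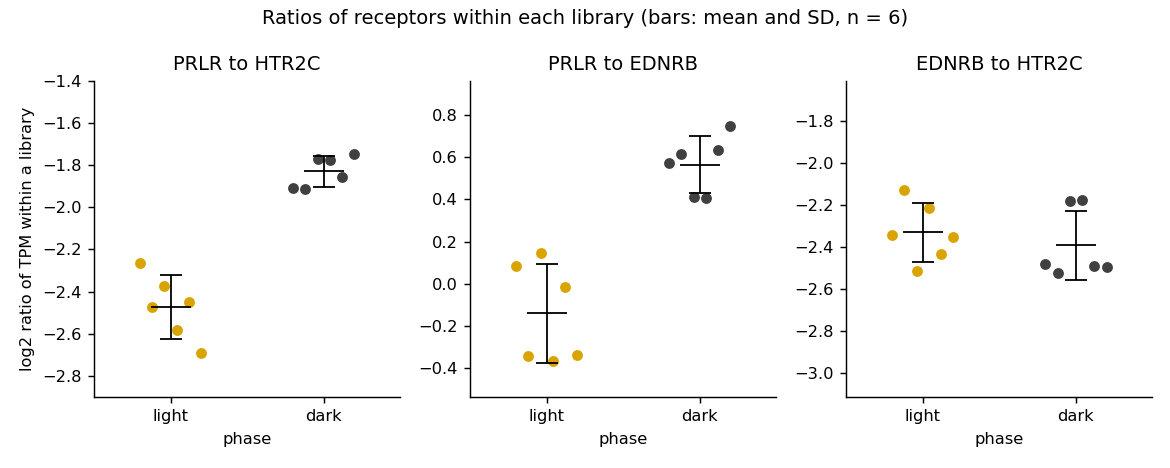
Log2 ratios of TPM between pairs of receptors within each library, one point per library, with the mean and SD of 6 libraries as bars and an equal span of the vertical axis in each panel. PRLR to HTR2C and PRLR to EDNRB lie higher in all 6 dark-phase libraries, and EDNRB to HTR2C overlaps between the phases.

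The mean levels of EDNRB and PRLR lay in a different order in each phase, and all libraries shared that order only in the dark phase. In the light phase the order of the means was HTR2C, EDNRB, PRLR and ADRA2C, and EDNRB exceeded PRLR in 4 of 6 libraries, a log2 difference of 0.14 ± 0.23 (SD, n = 6) that was within the spread (two-sided exact sign-flip permutation test, p = 0.219, 0.219 adjusted over 6 pairs). In the dark phase PRLR exceeded EDNRB in 6 of 6 libraries, by 0.56 ± 0.13 on the log2 scale (SD, n = 6, exact permutation p = 0.0312, 0.0375 adjusted). That p is the smallest that 6 libraries allow. The neighbours were taken from the observed order of the means, so these tests say only whether the libraries share that order. Among all 32883 genes, HTR2C ranked 159 by mean level, PRLR 750 and EDNRB 881, while ADRA2C ranked 10719.

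ADRA2C (ENSRNOG00000009299) was expressed at a low level, and lower in the dark phase. In the light phase it had 1.93 TPM at the lowest, 3.25 TPM at the median and 10.95 TPM at the highest, and in the dark phase 0.32, 0.62 and 1.26 TPM. All light-phase libraries lay above all dark-phase libraries, although the lowest light-phase and the highest dark-phase value were only 1.53-fold apart. The mean was 4.65 ± 3.31 TPM at ZT8 and 0.688 ± 0.337 TPM at ZT20 (SD, n = 6 each), a 6.76-fold difference and -1.97 on the fitted log2 scale. The added 0.5 TPM pulls this value towards 0, and with 0.1 TPM added it was -2.48. The highest value was that of light-phase replicate 2, without which the light-phase mean was 3.39 ± 1.34 TPM (SD, n = 5) and 4.92-fold above the dark-phase mean. Low levels and the spread within the light phase, with a coefficient of variation of 71.2%, leave the size of this difference less certain than that of PRLR.

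Levels of vessel wall genes were set beside ADRA2C, and they differed in how they moved between the phases. Of 10 markers of pericytes and smooth muscle, RGS5 and TAGLN could be paired, and their summed level ran from 170 to 420 TPM at ZT8 and from 165 to 249.9 TPM at ZT20. TAGLN, the smooth muscle protein transgelin, had 54.7 ± 23.2 TPM at ZT8 and 31.3 ± 4.24 TPM at ZT20 (SD, n = 6 each), and limma called it lower in the dark phase by -0.72 on the log2 scale (FDR = 0.0272), with overlapping phases. RGS5, the more abundant of the pair, had 167 ± 77.3 TPM at ZT8 and 156 ± 29.6 TPM at ZT20 (SD, n = 6 each). It was not called (log2 fold change -0.046, limma FDR = 0.904). Light-phase replicate 2 had the highest values of ADRA2C, TAGLN (95.8 TPM), RGS5 (325 TPM) and PLVAP (124 TPM), an endothelial gene. In the dark phase the order differed. Replicate 5 was highest in RGS5 (212 TPM) and PLVAP (96.8 TPM), but its ADRA2C value of 0.60 TPM lay below the dark-phase median. Of 10 endothelial markers, PLVAP and FLT1 could be paired, summing to 71.4 to 139 TPM at ZT8 and 72.1 to 113 TPM at ZT20. PLVAP makes up most of this sum, with 76.4 ± 23.9 TPM and 66.8 ± 15.1 TPM (SD, n = 6 each) and overlapping phases. It was not called either (limma FDR = 0.468). FLT1, a receptor for vascular endothelial growth factor, lay the other way, with 12.7 ± 0.979 TPM at ZT8 and 16.5 ± 0.748 TPM at ZT20 (SD, n = 6 each) and no overlap. Its identifier comes from a list of genes called between the phases, so it is described without a test. The part of these cells in the ADRA2C difference was not tested.

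**Figure D4:**
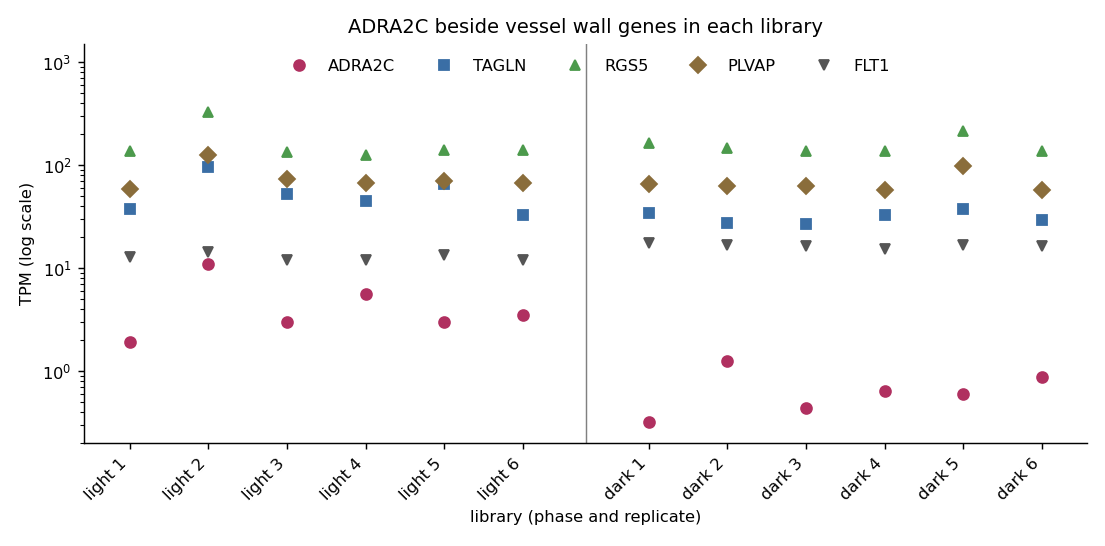
TPM of ADRA2C, the smooth muscle and pericyte genes TAGLN and RGS5 and the endothelial genes PLVAP and FLT1 in each of the 12 libraries, on a logarithmic axis. Light-phase replicate 2 is highest in ADRA2C, TAGLN, RGS5 and PLVAP, FLT1 is higher in every dark-phase library, and dark-phase replicate 5 is high in RGS5 and PLVAP but has 0.60 TPM of ADRA2C.

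Markers of other cells were paired in part as well. The 2 fibroblast genes of 8 (DCN and PDGFRA) summed to 135 to 216 TPM at ZT8 and 145 to 228 TPM at ZT20. The 2 ependymal genes of 6 (RSPH1 and CFAP126) summed to 274 to 297 TPM and to 200 to 233 TPM, and this fall was that of CFAP126, which limma called lower in the dark phase (log2 fold change -0.55, limma FDR = 1.63e-05). RSPH1 had 76.8 ± 4.69 TPM at ZT8 and 76.6 ± 5.38 TPM at ZT20 (SD, n = 6 each, limma FDR = 0.867). PTPRC, the 1 macrophage marker of 8, lay between 1.93 and 2.97 TPM and between 1.27 and 2.14 TPM. None of the 10 neuronal or 7 astrocyte markers had an identifier, so nervous tissue could not be checked with them. Of 10 genes chosen for striatal neurons, only PPP1R1B and ADORA2A could be paired, and they lay far apart in level. PPP1R1B, which encodes the phosphatase inhibitor DARPP-32, had 441 ± 16.4 TPM at ZT8 and 466 ± 16.2 TPM at ZT20 (SD, n = 6 each). Its coefficient of variation was 3.71% at ZT8 and 3.46% at ZT20. ADORA2A, an adenosine receptor, had 2.31 ± 0.628 TPM and 2.01 ± 0.370 TPM (SD, n = 6 each). Which cells the PPP1R1B transcripts came from was not tested. The identifiers of PTPRC and ADORA2A come from the study's list of membrane genes that differed between the phases. Both are therefore described without a test. In the epithelial list, limma called KL, OTX2 and CLIC6 higher and AQP1 and SLC4A5 lower in the dark phase, and 5 of the 10 genes were not called. Apart from OTX2, the called genes are also in the study's lists of genes that differed between the phases in these libraries. The median log2 fold change of the 10 was 0.021, and their part in the PRLR difference was not tested.

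Ligand, handling and signalling genes around the receptors were taken from 8 lists with 225 genes. Only 15 could be paired through the table ordered by level, since the part of that table used here covers the more abundant genes. Of these 15, limma called 0 higher and 1 lower in the dark phase, where 23.0% of the genes of that table were called. The median log2 fold change of the 15 genes was -0.046. That of the genes of the same table was -0.032, and that of all genes tested was -0.0057. The called gene was RGS3, a regulator that ends signalling of Gq and Gi proteins, with 103 ± 8.86 TPM at ZT8 and 86.4 ± 7.30 TPM at ZT20 (SD, n = 6 each). Its log2 fold change was -0.26 (limma FDR = 0.0119), and its phases overlapped. Like PRLR, RGS3 is also in the study's list of genes that differed between the phases in these libraries. Its call is therefore not independent of that earlier result. With each library's FPKM total over its TPM total as a covariate, the RGS3 log2 fold change was -0.29 and was not called (limma FDR = 0.156). This quotient itself differed between the phases, with 0.953 to 0.987 in the light and 0.934 to 0.960 in the dark phase. With it 346 of all genes tested were called in place of 2217, so the lost call is not particular to RGS3. The endothelin list and the list of other receptors had 0 genes with such a pairing.

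On the serotonin side, the paired gene was SLC29A4, a plasma membrane monoamine transporter, with 59.1 ± 11.4 TPM and 51.0 ± 12.5 TPM (SD, n = 6 each, limma FDR = 0.350). ITPR1, the inositol trisphosphate receptor that releases calcium downstream of Gq, had 84.5 ± 5.83 TPM and 89.2 ± 8.18 TPM (SD, n = 6 each, limma FDR = 0.522). Of the Gi proteins through which ADRA2C acts, GNAI2 had 109 ± 16.7 TPM and 103 ± 5.34 TPM and GNAI3 56.8 ± 4.48 TPM and 56.3 ± 1.37 TPM (SD, n = 6 each, limma FDR = 0.464 and 0.731). PRKAR1A, a regulatory subunit of protein kinase A, had 142 ± 8.57 TPM and 157 ± 8.496 TPM (SD, n = 6 each, limma FDR = 0.0690). None of these genes passed the test. GNAI3 and PRKAR1A are nevertheless in the study's lists of genes that differed between the phases in these libraries.

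For prolactin signalling, PTPN11, a phosphatase of the JAK and STAT pathway, had 51.5 ± 1.91 TPM at ZT8 and 52.0 ± 1.93 TPM at ZT20 (SD, n = 6 each, limma FDR = 0.987). Insulin-like growth factor genes were abundant. IGFBP2, a binding protein, had 6424 ± 583 TPM and 6426 ± 483 TPM, and the growth factor IGF2 had 2036 ± 169 TPM and 2199 ± 68.6 TPM (SD, n = 6 each, limma FDR = 0.935 and 0.324). The binding proteins IGFBP4, IGFBP5 and IGFBP7 did not pass the test either (limma FDR = 0.366, 0.514 and 0.394), nor did AKT1, a kinase downstream of insulin and IGF receptors (0.0852).

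**Figure D5:**
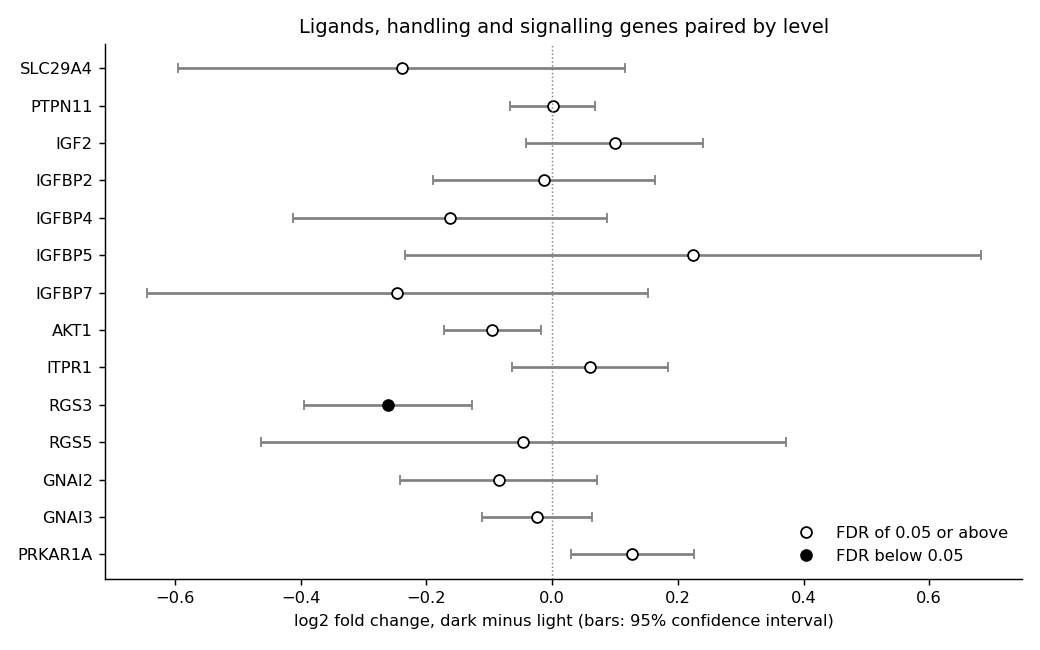
Log2 fold changes of the dark against the light phase with 95% confidence intervals for ligand, handling and signalling genes, with a filled point for an FDR below 0.05. RGS3, at -0.26, is the filled point, and the others are open.

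A further 28 genes of the lists had an identifier only through lists of genes that the study called between the phases in these libraries, as for ADRA2C, and are given as levels without a test. The part of those lists used here starts with increases in the dark phase, so most of their directions follow from the choice. Downstream of PRLR, STAT5B had 9.93 ± 1.09 TPM at ZT8 and 12.9 ± 0.976 TPM at ZT20, and STAT3 had 26.5 ± 3.06 TPM and 30.02 ± 1.03 TPM (SD, n = 6 each). SOCS6, of the family of cytokine signalling suppressors, had means of 10.5 and 11.8 TPM. GHR, the growth hormone receptor and the nearest relative of PRLR in these lists, had 12.0 ± 1.23 TPM and 13.8 ± 3.70 TPM (SD, n = 6 each), with overlapping phases. CISH, an inhibitor that STAT5 induces, split the light phase. It had 29.1, 17.9 and 15.1 TPM in replicates 1, 2 and 3 and 3.87, 5.12 and 5.26 TPM in replicates 4, 5 and 6, against 5.32 to 6.29 TPM in the dark phase. The split was not particular to CISH. STAT3 had 26.7, 31.2 and 29.1 TPM in replicates 1, 2 and 3 and 23.6, 24.3 and 24.1 TPM in replicates 4, 5 and 6. STAT5B, SOCS6 and GHR did not divide in this way.

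Among the other adrenoceptors, ADRA1A had 0.582 ± 0.239 TPM at ZT8 and 1.23 ± 0.411 TPM at ZT20, and ADRA2B had 0.223 ± 0.179 TPM and 0.107 ± 0.0520 TPM (SD, n = 6 each). Averaged over all libraries both were below the filter of 1 TPM, and in both the phases overlapped. The muscarinic receptor CHRM1 and the VIP receptor VIPR2 also stayed below it, with means of 0.805 and 0.368 TPM for CHRM1 and 0.665 and 0.835 TPM for VIPR2. THRA, the thyroid hormone receptor alpha, reached 44.8 ± 2.66 TPM and 65.7 ± 3.84 TPM (SD, n = 6 each), without overlap. IGF2R, which takes up IGF2, had 30.4 ± 1.87 TPM and 38.5 ± 2.48 TPM, and the insulin receptor substrate IRS3 had 1.03 ± 0.285 TPM and 2.10 ± 0.282 TPM (SD, n = 6 each), both without overlap. On the Gq side, PLCB3, a phospholipase C, had 6.40 ± 0.974 TPM and 8.31 ± 0.704 TPM (SD, n = 6 each), and the protein kinase C gene PRKCA had means of 1.82 and 2.82 TPM. The adenylyl cyclase ADCY6 had means of 40.1 and 44.8 TPM.

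After the mean of each phase was taken off the log2 levels, Pearson correlations over the 12 libraries were 0.16 for HTR2C and PRLR, -0.14 for HTR2C and EDNRB and -0.20 for PRLR and EDNRB. ADRA2C had -0.64 with PRLR, -0.49 with HTR2C and 0.17 with EDNRB. Among 3626 other genes with a symbol, ZBTB18 (0.89), HECTD4 (0.89) and KLF12 (0.88) came closest to PRLR, and UFC1 (0.90) and BTRC (0.90) were among the 3 closest to HTR2C. Closest to EDNRB were GSTM1 (0.89), TGOLN2 (0.87) and PRELP (0.84), and closest to ADRA2C were RACK1 (0.92), FTL1 (0.91) and MIF (0.90). These points share libraries, depth and scaling, and the highest of many correlations over 12 libraries are described, not tested.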

How the data were processed

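Whole choroid plexus RNA of 12 rats was sequenced as paired reads. The authors aligned reads to Rnor_6.0 with STAR 2.7.9a, quantified Ensembl genes with RSEM 1.3.3, and deposited TPM and FPKM per gene and library. The authors tested read counts with DESeq2. No counts were used here, so limma on TPM took the place of a count model. The labels name no batch, and replicates are separate rats. Metabolite data of the study were not analysed here.

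Symbols were paired with identifiers only through the study's tables of expressed, differing and plasma membrane genes, held in part (3690 symbols). The members and gene lists were chosen with earlier results of these data known. TPM was divided by a trimmed mean of ratios (30% of ratios and 5% of levels trimmed at each end), transformed as log2(TPM + 0.5), filtered at a mean of 1 TPM and fitted with limma 3.58.1 in R 4.3.3 with phase alone, a variance trend and Benjamini-Hochberg adjustment at 0.05. Levels are printed as deposited. Exact permutation tests and ratios were computed in Python 3.11.15 (scipy 1.17.1, numpy 2.4.6, pandas 2.3.3), and plots drawn in matplotlib 3.10.9. Within-library ratios to HTR2C were chosen after the data were seen.

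On simulated data for this comparison over 12513 genes, 61% of 100 genes changed by 0.5 on the log2 scale and 88% of 100 changed by 1 were recovered, and 5 unchanged genes were called. FPKM served as an alternative unit and for relative depth, from genes listed above 0 in 2 to 4 libraries at 0.1 to 5 FPKM and within 1.6-fold, each value taken as 1 read. No pair of libraries was identical (pairwise r 0.958 to 0.983). Named genes were the members, in each list the 3 tested genes with the smallest p, the 2 with the highest level and relatives of a member, and the 3 closest correlates of each member. A few genes that this rule picks are not reported here. Other genes of the 15 tested and CISH, CHRM1 and VIPR2 were named after their values were seen. Alternatives were other scalings, pseudocounts, filters, FPKM, a replicate block, sample weights, robust variances, each library's FPKM total over its TPM total as a covariate, and leaving out each library.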

Additional observations from a re-analysis of the deposited data

Results flagged for a closer look

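Dixon's test asks how far the highest or lowest of 6 libraries stands from its neighbour, as a share of their range, with a critical value of 0.625. It was applied to 38 sets of 6 values, the 4 receptors and 15 signalling genes in both phases. Chance alone gives about 1 in 20 sets, or 1.9 here, and 5 were found, none of them in a receptor. Light-phase replicate 2 stood apart in IGFBP7 (721 TPM, light-phase median 303 TPM), RGS5 (325 TPM, median 139 TPM) and the G protein gene GNAI2 (142 TPM, median 102 TPM). Dark-phase replicate 5 stood apart in RGS5 (212 TPM, median 142 TPM), and dark-phase replicate 2 in IGFBP5 (85.7 TPM, median 58.1 TPM).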

How the results depend on the processing

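PRLR kept its direction and its call in all 25 alternatives, 1 of them its ratio to HTR2C. Over the others the limma FDR ran from 6.17e-06 to 0.00638, the latter with each library's FPKM total over its TPM total as a covariate. This quotient ran from 0.953 to 0.987 in the light phase and from 0.934 to 0.960 in the dark phase, and its part in the results was not tested further. With it, 346 genes were called in place of 2217 (225 higher in place of 1206, 121 lower in place of 1011), 0 of the 15 signalling genes were called, and signs turned for EDNRB (0.019), ITPR1 (-0.059), IGFBP2 (0.17) and PTPN11 (-0.020), none of them called. EDNRB and HTR2C were not called in any alternative. Without TTR and the mitochondrial genes, 1353 of 2092 calls were higher in the dark phase (64.7%, against 54.4%), and GNAI3 (0.0055) and IGFBP2 (0.017) changed sign. IGFBP2 also did so without scaling (0.0017), PTPN11 with the median of ratios (-0.00079) and sample weights (-0.0013), and RGS5 with sample weights (0.069). The cause was not tested.

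With each library left out in turn, values ran from 0.64 to 0.71 for PRLR, from -0.0029 (without light-phase replicate 2) to 0.042 for HTR2C, from -0.078 to -0.0051 for EDNRB, from -2.15 to -1.72 for ADRA2C, from -0.053 to 0.030 for IGFBP2, from -0.015 to 0.011 for PTPN11 and from -0.14 to 0.15 for RGS5. Between 1697 and 2239 genes were called in all, and 1 to 2 signalling genes, the second being AKT1 without dark-phase replicate 2 (limma FDR = 0.0439).

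Replicate numbers are shared by the groups. Deviations of same-numbered libraries correlated at -0.11 to 0.047, and 0 light-phase libraries correlated best with their own number, so no pairing by number was seen. With so few libraries this check cannot exclude a pairing, and it does not cover a batch that spans several numbers. With the replicate number as a block, 1599 genes were called, and PRLR had a limma FDR of 0.00102. ADRA2C could not be fitted with a filter at 5 TPM. With no counts, depth limits cannot be given.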
